A study of Mus musculus with 12 samples.

Results

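Neuroligins and leucine-rich repeat proteins of the postsynaptic membrane were examined as RNA targets of SLM2, the splicing regulator encoded by *Khdrbs3*. The set comprised 9 genes, the neuroligins *Nlgn1*, *Nlgn2* and *Nlgn3*, the leucine-rich repeat transmembrane genes *Lrrtm1*, *Lrrtm2*, *Lrrtm3* and *Lrrtm4*, the netrin-G ligand gene *Lrrc4c* and the SALM family gene *Lrfn5*. They were chosen by name, with earlier results of these data known. Their peaks were those with the centre inside the GENCODE span of the gene on its strand. Of 2057 whole-brain peaks 95 met this rule (4.62%), and of 178 hippocampal peaks 4 did (2.25%). Peaks came from eCLIP, in which RNA is cross-linked to protein by UV light, immunoprecipitated with an SLM2 antibody and compared with size-matched input RNA from the same lysate. Tissue was whole brain or hippocampus of wild-type mice aged 30 days, with 2 eCLIP and 2 input libraries each. The 12 libraries of the series also include 2 eCLIP and 2 input libraries from hippocampus of *Slm2* KO mice, which were not analysed here. The 2 replicates of a tissue were merged by the authors into 1 list, so a count of peaks carries no spread between replicates. Each peak carries a log2 fold change of eCLIP over input, a −log10 p and a −log10 IDR (irreproducible discovery rate, a measure of how well a peak recurs in the replicates), and the lists hold peaks at 2 or more for log2 fold change and −log10 IDR.

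Neuroligins and LRRTM proteins sit in the postsynaptic membrane and bind presynaptic neurexins, whereas NGL-1, the product of *Lrrc4c*, binds netrin-G1, and SALM5, the product of *Lrfn5*, binds presynaptic receptor tyrosine phosphatases. Alternative exons in neurexins and neuroligins set which partners can pair across the synapse. SLM2 is a KH-domain protein of neuronal nuclei that binds A- and U-rich RNA and regulates alternative splicing.

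The sequences below show what the bound RNA looked like in these genes. For each gene with intronic peaks, the peak of highest log2 fold change, the peak with most copies of the tetramer UWAA (W = A or U), the peak nearest an exon of any annotated transcript and the hippocampal peaks were taken. They are given as RNA of the gene's strand, 5′ to 3′, from the GRCm38 genome (the mm10 build), with each UWAA in capitals. Starts of overlapping copies were each counted. In *Nlgn1*, transcribed from the minus strand of chromosome 3, the peak of highest log2 fold change (3.23) lay at chr3:25632929-25632997 in intron 5 and held 5 UWAA starts. The peak with most copies lay at chr3:26004826-26004985 in intron 3 and held 15 starts in 160 nt, and that nearest an exon lay at chr3:25907461-25907576 with 6.
Nlgn1 highest fold change: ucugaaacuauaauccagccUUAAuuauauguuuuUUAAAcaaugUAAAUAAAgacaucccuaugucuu
Nlgn1 most UWAA: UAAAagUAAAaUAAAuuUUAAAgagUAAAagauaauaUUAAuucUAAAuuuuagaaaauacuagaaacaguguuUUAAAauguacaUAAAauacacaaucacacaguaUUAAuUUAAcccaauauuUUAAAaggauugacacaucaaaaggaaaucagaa
Nlgn1 nearest an exon: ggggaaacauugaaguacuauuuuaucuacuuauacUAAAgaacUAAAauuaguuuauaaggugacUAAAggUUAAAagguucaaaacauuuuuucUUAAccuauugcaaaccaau

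Both hippocampal *Nlgn1* peaks lay in intron 5, at chr3:25793713-25793909 and chr3:25874261-25874372, with 6 and 4 UWAA starts.
Nlgn1 hippocampus, first: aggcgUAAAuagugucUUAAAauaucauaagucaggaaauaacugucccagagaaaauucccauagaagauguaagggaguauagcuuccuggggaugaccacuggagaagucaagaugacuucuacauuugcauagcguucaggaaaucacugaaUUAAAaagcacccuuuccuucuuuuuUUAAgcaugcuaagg
Nlgn1 hippocampus, second: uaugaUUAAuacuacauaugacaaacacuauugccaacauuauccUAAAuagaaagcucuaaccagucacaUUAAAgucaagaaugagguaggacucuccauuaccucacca

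In *Lrrtm4*, on the plus strand of chromosome 6, the peak of highest log2 fold change (3.39) lay at chr6:80207198-80207372 with 6 UWAA starts in 175 nt. The peak with most copies, at chr6:80192960-80193150, held 20 starts in 191 nt. The hippocampal peak lay at chr6:80155708-80155799, where 96.7% of its bases were repeat-masked and 3 starts were found. All 3 lay in intron 2, and the peak nearest an exon is described below without its letters.
Lrrtm4 highest fold change: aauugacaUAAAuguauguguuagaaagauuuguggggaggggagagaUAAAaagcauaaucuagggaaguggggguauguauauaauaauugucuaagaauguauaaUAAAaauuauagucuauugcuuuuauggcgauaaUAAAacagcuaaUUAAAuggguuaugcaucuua
Lrrtm4 most UWAA: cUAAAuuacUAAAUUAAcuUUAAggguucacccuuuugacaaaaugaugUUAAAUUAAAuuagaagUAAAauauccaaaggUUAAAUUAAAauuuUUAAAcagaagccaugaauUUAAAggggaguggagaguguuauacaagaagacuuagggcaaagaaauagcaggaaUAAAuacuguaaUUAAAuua
Lrrtm4 hippocampus: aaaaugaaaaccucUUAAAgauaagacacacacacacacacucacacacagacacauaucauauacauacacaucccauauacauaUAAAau

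In *Lrrc4c*, on the plus strand of chromosome 2, the highest peak (log2 fold change 3.86, chr2:96912979-96913088, intron 3) held 4 UWAA starts. The peak nearest an exon (chr2:97507785-97507865, intron 5), whose bases were 100% repeat-masked, held 2.
Lrrc4c highest fold change: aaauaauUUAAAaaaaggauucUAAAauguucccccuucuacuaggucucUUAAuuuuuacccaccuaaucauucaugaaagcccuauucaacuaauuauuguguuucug
Lrrc4c nearest an exon: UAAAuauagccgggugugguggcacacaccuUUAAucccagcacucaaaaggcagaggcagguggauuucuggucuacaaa

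In *Lrfn5*, on the plus strand of chromosome 12, the highest peak of all 9 genes (log2 fold change 4.02, chr12:61793380-61793495) held 5 UWAA starts. The peak with most copies (chr12:61790537-61790653) held 7, the peak nearest an exon (chr12:61675203-61675297) 6 and the hippocampal peak (chr12:61772607-61772732) 2. All 4 lay in intron 2.
Lrfn5 highest fold change: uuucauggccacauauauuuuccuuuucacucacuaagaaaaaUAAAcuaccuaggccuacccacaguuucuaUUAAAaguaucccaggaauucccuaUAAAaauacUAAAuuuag
Lrfn5 most UWAA: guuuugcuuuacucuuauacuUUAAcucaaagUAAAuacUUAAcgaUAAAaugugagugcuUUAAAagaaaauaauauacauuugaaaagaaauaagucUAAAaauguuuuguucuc
Lrfn5 nearest an exon: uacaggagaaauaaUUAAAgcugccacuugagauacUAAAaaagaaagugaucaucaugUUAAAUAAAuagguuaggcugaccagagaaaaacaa
Lrfn5 hippocampus: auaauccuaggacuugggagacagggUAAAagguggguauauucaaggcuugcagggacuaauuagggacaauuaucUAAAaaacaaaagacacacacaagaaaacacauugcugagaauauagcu

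SLM2 peaks were present in 5 of the 9 genes in whole brain. *Lrrtm4* held 43 peaks, *Nlgn1* 35, *Lrfn5* 10, *Lrrc4c* 6 and *Lrrtm2* 1. *Nlgn2*, *Nlgn3*, *Lrrtm1* and *Lrrtm3* held none in either tissue. In hippocampus *Nlgn1* held 2 peaks, *Lrrtm4* 1 and *Lrfn5* 1. No peak lay on the opposite strand of any of the 9 genes. The share of all 21951 protein-coding genes with at least 1 peak was 1.92% in whole brain and 0.378% in hippocampus, but this share rises with gene length. It was 0.313% in whole brain and 0.0885% in hippocampus for genes with a span under 50 kb, 3.79% and 0.445% for 50 to 250 kb, and 28.0% and 6.65% for 250 kb or more. The 4 organizer genes of at least 250 kb all had whole-brain peaks and 3 of them had hippocampal peaks. Genes and span classes were chosen with earlier results of these data known, so these counts are a description and not a test. Of the 4 genes under 50 kb, *Lrrtm2* had 1 whole-brain peak and no gene had a hippocampal one, and *Lrrtm3*, the one gene between, had none. Genes without a peak were thus, apart from *Lrrtm3* with its span of 162 kb, the short ones, from 14.7 kb (*Nlgn2*) to 26.8 kb (*Nlgn3*). Expression was not measured here, so an absent peak cannot be told apart from too little RNA of the gene.

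Among the long genes the order by peaks was not the order by length. *Lrrc4c* is the longest at 1313 kb and held 0.457 peaks per 100 kb, while *Lrrtm4* (791 kb) held 5.43, *Nlgn1* (906 kb) 3.86 and *Lrfn5* (335 kb) 2.98. Of the 737 protein-coding genes of at least 250 kb, 206 had a whole-brain peak, and their median was 2 peaks and 0.395 peaks per 100 kb. By number of peaks *Lrrtm4* ranked 10, *Nlgn1* 12, *Lrfn5* 39 and *Lrrc4c* 48 among the 737. By peaks per 100 kb the ranks were 6, 13, 21 and 97. When the 47 genes with at least 10 peaks were ranked by peaks per 100 kb, *Lrrc7* (4.59) stood next above *Nlgn1*, and *Ptprd* (3.83) and *Mdga2* (3.70) next below. Of these, *Mdga2* encodes a protein that binds neuroligins and blocks their pairing with neurexins. In the same ranking *Pex5l* (6.71) and *Ncam2* (5.87) stood next above *Lrrtm4*, and *Phactr1* (5.24) and *Stxbp5l* (5.18) next below.

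**Figure D1:**
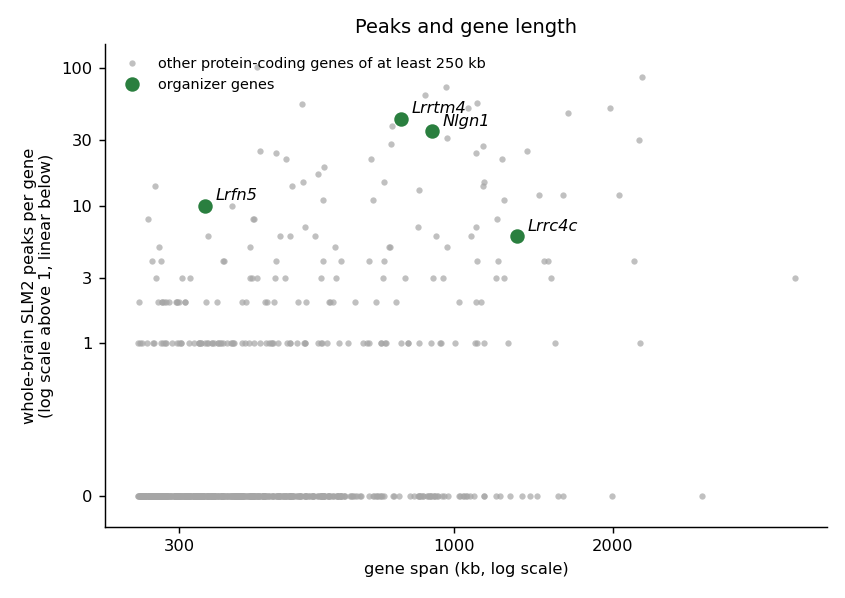
Whole-brain SLM2 peaks per gene (y axis, log scale above 1 and linear below) against gene span in kb (x axis, log scale) for 737 protein-coding genes of at least 250 kb, each point a gene. *Lrrtm4* with 43 and *Nlgn1* with 35 peaks lie near the top of their length range, whereas *Lrrc4c*, longer than either, has 6.

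*Nlgn1*, which encodes a neuroligin of excitatory synapses, carried most of its peaks in the long intron 5 (gene at chr3:25426215-26332460). This intron of 473 kb, between coding exons of 153 and 213 nt, held 32 of the 35 whole-brain peaks, or 6.77 per 100 kb, and both hippocampal peaks. Intron 3 (213 kb) held the other 3, or 1.41 per 100 kb, and introns 1, 2, 4, 6 and 7, of which intron 1 measures 146 kb, held none. Upstream of the midpoint of intron 5 lay 23 peaks, and downstream of it 9. A stretch of 24.3 kb at chr3:25861480-25885812 alone held 13 of the 35 peaks, which formed 5 sites when peaks under 1000 nt apart were joined. Over the whole gene the 35 peaks formed 32 sites at 100 nt and 23 at 1000 nt. Log2 fold changes ran from 2.01 to 3.23 with a median of 2.47, and 3 peaks reached 3. The peak nearest to an exon of any annotated transcript was 5124 nt away and the median distance was 100 kb. The 60-nt coding exon at chr3:25920178-25920237, which 2 annotated transcripts include and 2 skip, had its nearest peak 12.6 kb away.

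*Lrrtm4*, which encodes a postsynaptic receptor for neurexins and for heparan sulfate proteoglycans, had the most peaks of the 9 genes (gene at chr6:80018877-80810143). All 43 whole-brain peaks and the hippocampal peak lay in intron 2 of its principal transcript, an intron of 786 kb, at 5.47 whole-brain peaks per 100 kb. Upstream of its midpoint lay 29 of them and downstream 14. Unlike in *Nlgn1* the peaks were spread out. The densest 25 kb held 5 of the 43, and joining peaks under 1000 nt apart left 33 sites. Log2 fold changes ran from 2.04 to 3.39 with a median of 2.38, and 5 peaks reached 3. Shorter annotated transcripts of the gene end early in intron 2, and 2 peaks lay in their 3′ UTRs. The first, with a log2 fold change of 2.69, ended at position 80024926 on chromosome 6, beside the annotated ends of 2 such transcripts at 80024924 and 80024932. It held 7 UWAA starts within 50 nt of its centre, against a mean of 1 in its flanks, and 3 copies of AAUAAA, the polyadenylation signal, which itself contains a UWAA. The second started at 80025517 in the 3′ UTR of another such transcript that ends at 80025909, with 1 copy of AAUAAA. One *Lrrtm4* peak also lay within *Gm44230* on the same strand, and the reads of the 2 genes cannot be told apart there.

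**Figure D2:**
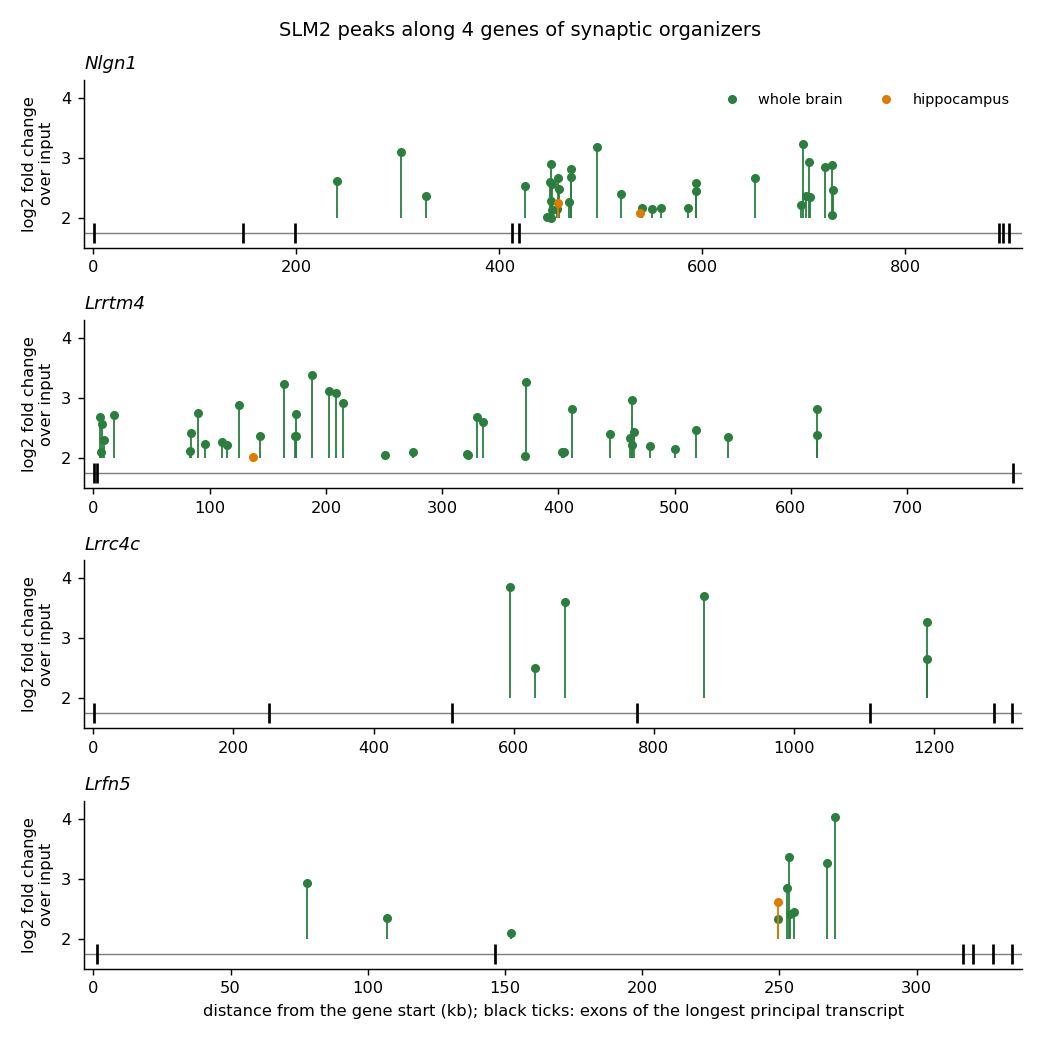
SLM2 peaks along *Nlgn1*, *Lrrtm4*, *Lrrc4c* and *Lrfn5* by distance from the gene start in kb (x axis) and log2 fold change of eCLIP over input (y axis), for whole brain (green) and hippocampus (orange), with exons of the principal transcript as black ticks. Of the 35 whole-brain *Nlgn1* peaks 32 lie in intron 5, the 43 *Lrrtm4* peaks run along intron 2, and 7 of 10 *Lrfn5* peaks stand within 20.9 kb.

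*Lrfn5*, which encodes the adhesion molecule SALM5, had 10 whole-brain peaks (gene at chr12:61523150-61858342). Intron 2 (170 kb) held 8 and intron 1 (145 kb) held 2. Of the 10 peaks, 7 stood within 20.9 kb at chr12:61772595-61793495, downstream of the midpoint of intron 2. The log2 fold changes of these 7 ran from 2.34 to 4.02 with a median of 2.85. Over all 10 the median was 2.65 and 3 peaks reached 3. The nearest exon of any annotated transcript was 3426 nt from a peak.

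*Lrrc4c*, which encodes the netrin-G1 ligand NGL-1, had few peaks of high fold change (gene at chr2:96318169-97631666). The log2 fold changes of its 6 peaks were 3.86, 2.51 and 3.61 in intron 3, 3.71 in intron 4, and 2.66 and 3.28 in intron 5. The median of 3.44 was above those of *Nlgn1*, *Lrrtm4* and *Lrfn5*, and 4 of the 6 reached 3, against 15 of all 95 member peaks. Of the 1851 other intronic peaks 23.0% reached 3, with a median of 2.56. The 92 intronic member peaks stood below these, at 16.3% and 2.46. Introns 1 and 2, of 250 and 262 kb, held none. These fold changes are the authors' merged values without a spread, and the differences between genes were not tested.

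*Lrrtm2*, which encodes a neurexin receptor of excitatory synapses, is a gene of 6.02 kb whose single intron measures 0.349 kb. Its 1 peak, at chr18:35211969-35212138 on the minus strand, lay in the 3′ UTR, starting 565 nt past the end of the coding frame as annotated. The log2 fold change was 2.00 and thus at the limit of the list. UWAA was not denser at this peak, with 4 starts within 50 nt of its centre and a mean of 5 in the flanks. The peak held 4 copies of AAUAAA and ended 2966 nt before the annotated end of the transcript.

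The tetramer UWAA was denser at the intronic whole-brain peaks of these genes than beside them. UWAA starts were counted per 100 positions within 50 nt of each peak centre and in 2 flanks of the same width centred 500 nt away. In *Nlgn1* the density was 4.37 at peaks against 1.94 in flanks, with the peak above its flanks in 27 of 35. *Lrrtm4* had 4.01 and 1.69 over its 41 peaks outside annotated exons, higher at 34. *Lrfn5* had 4.59 and 1.89, higher at 9 of 10. *Lrrc4c* had 3.40 and 2.55, higher at 3 of 6. Over all 92 peaks the means were 4.17 and 1.86, a difference of 2.31 with an SD over peaks of 2.58. At 1851 other intronic peaks of protein-coding genes they were 3.62 and 1.81. A limit of 20% repeat-masked bases left 33 member peaks, with means of 3.12 and 1.93, a difference of 1.19. The central window alone met that limit at 44 member peaks, with a density of 3.36, against 2.89 at 899 other peaks. With both flanks also within it, the means were 3.15 and 1.62 at 11 member peaks, a difference of 1.53. At 305 others they were 2.45 and 1.27, a difference of 1.17. Among 68 other genes with at least 5 intronic peaks, whose median difference was 2.13, 13 had a larger difference than *Lrfn5*, 21 than *Nlgn1*, 25 than *Lrrtm4* and 57 than *Lrrc4c*. The genes thus stood within the range of other targets.

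**Figure D3:**
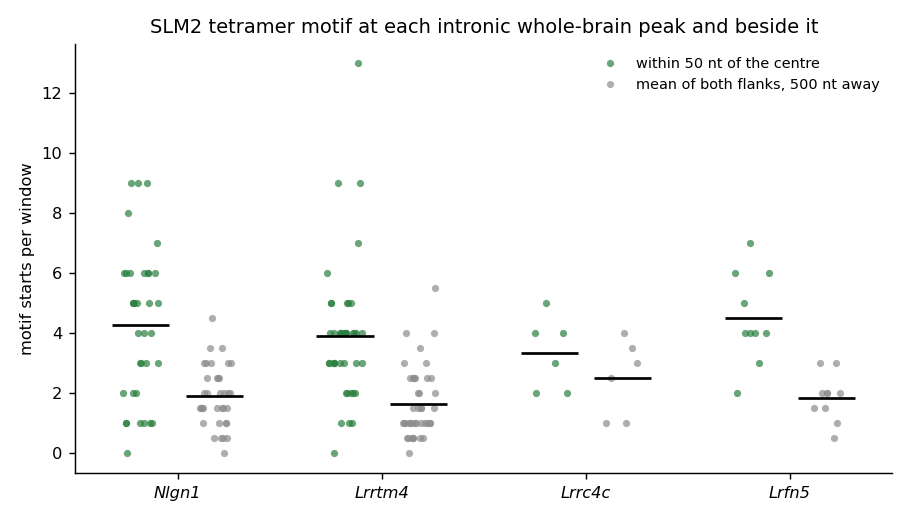
UWAA starts in the 101-nt window at the centre of each intronic whole-brain peak (green) and the mean of its 2 flanks (grey), by gene, with black bars for the mean over peaks. Peaks sit above flanks in *Nlgn1*, *Lrrtm4* and *Lrfn5*, at 27 of 35, 34 of 41 and 9 of 10 peaks, and overlap them in *Lrrc4c*.

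Windows at peaks held several starts of the motif more often than flanks did. Overlapping copies were each counted, so a single UUAAA gives 2 starts, and several starts need not be separate copies. At least 2 starts lay within 50 nt of the centre in 81 of 92 windows (88.0%), against 48.4% of flanks, and 33 windows held 5 or more, with 13 the highest. In other intronic peaks 74.1% of windows held at least 2. Of all 256 tetramers, UAAA had the largest excess over flanks in the 92 windows (2.57 against 1.08 per 100), before AAUA (2.25 against 1.01) and AUAA (2.11 against 1.00). UUAA, the other form of UWAA, came sixth (1.60 against 0.782). The same tetramers were in excess at other intronic peaks. There UAAA had 2.17 against 0.993, AUAA 1.69 against 0.829, AAUA 1.61 against 0.902 and UUAA 1.45 against 0.815. The longer motif UUWAAAA was in 20 of 92 windows (21.7%) and 5.43% of flanks, and in 18.9% of windows of other intronic peaks.

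**Figure D4:**
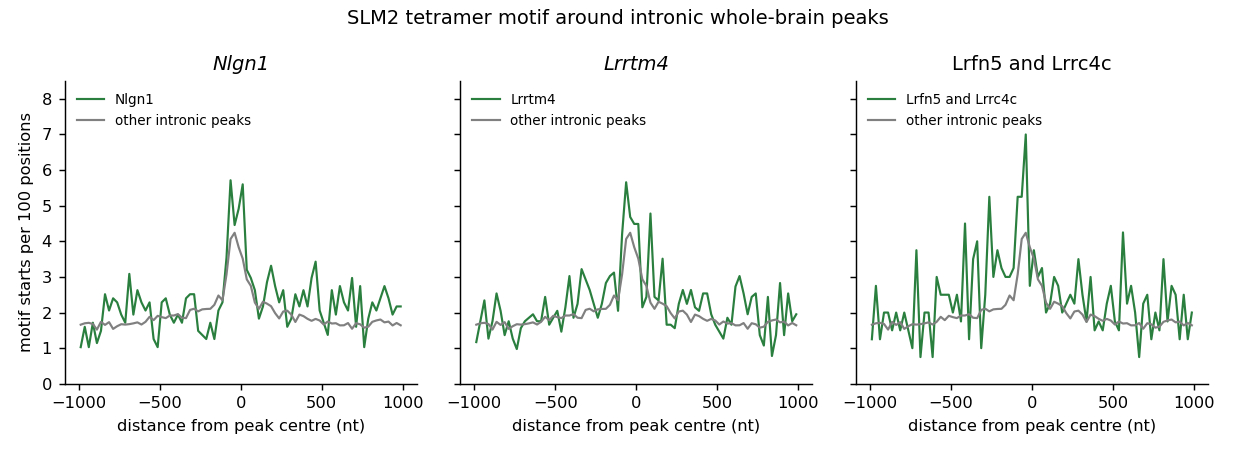
UWAA starts per 100 positions (y axis) in 25-nt bins by distance from the peak centre in nt (x axis) for intronic whole-brain peaks of *Nlgn1*, *Lrrtm4*, and *Lrfn5* with *Lrrc4c* (green), each beside 1851 other intronic peaks (grey). The excess lies near the centre in the members as in the other peaks, and lines over few peaks scatter more.

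A UWAA lay inside 90 of the 92 intronic peaks (97.8%, exact 95% binomial interval 92.4 to 99.7), against 1520 of 1851 other intronic peaks (82.1%, 80.3 to 83.8). The difference of 15.7 percentage points passed a two-sided Fisher's exact test over peaks (adjusted p = 2.01e-05 over 3 comparisons). Among peaks with log2 fold changes of 3 or more it did not pass, with 15 of 15 against 343 of 425 (Fisher's exact test, adjusted p = 0.255). A and U made up 68.8% of the bases within 50 nt of the centres in these genes and 63.2% in the others. The flanks differed in the same direction, with 64.6% A and U beside member peaks and 60.6% beside the others. No UWAA was found in 23.4% of member flanks and 33.0% of other flanks. Among peaks with at least 65% A and U, a limit set after seeing the data, the shares were 97.0% and 98.0%, a difference of −0.986 points (Fisher's exact test, adjusted p = 0.646). UWAA consists of A and U, so this limit favours the motif in both sets and leaves little room for a difference, and the part of base composition in the difference was not tested. The 92 peaks came from 4 genes, with 35 from *Nlgn1* and 41 from *Lrrtm4*. Peaks of 1 gene are not independent, so the p-values do not measure spread between genes, and intervals cover counting error only.

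The share of peaks in repeat-masked sequence did not pass the test of a difference. More than 50% of the bases were masked in 11 of 92 intronic peaks (12.0%, 6.12 to 20.4) and in 266 of 1851 others (14.4%, 12.8 to 16.1), a difference of −2.41 points (Fisher's exact test, adjusted p = 0.646). With a limit of 20% the direction turned, with 54.3% against 45.4% (Fisher's exact test, adjusted p = 0.161). No member peak matched the sequencing adaptor over 10 nt or more.

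The hippocampal peaks were few and weak. The log2 fold changes were 2.08 and 2.24 in *Nlgn1*, 2.02 in *Lrrtm4* and 2.61 in *Lrfn5*, and the −log10 p values against input were 0.745, 0.921, 0.751 and 1.48. All 4 were below 2, as were 95 of all 178 hippocampal peaks (53.4%), whereas the lowest whole-brain value in the whole list was 2.82. The *Lrfn5* peak lay within a whole-brain peak over its full 126 nt. One *Nlgn1* peak stood 93 nt from a whole-brain peak and the other 1568 nt, and the *Lrrtm4* peak stood 6681 nt away. Overlap with a whole-brain peak, 1 of 4 here (25.0%, 0.631 to 80.6), was 49 of 118 among other intronic hippocampal peaks (41.5%, 32.5 to 51.0), a difference the 4 peaks could not resolve (Fisher's exact test, adjusted p = 0.646). The depth of the libraries was not analysed here, and its part in the difference between tissues was not tested.

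Of 19 further genes of leucine-rich repeat proteins, taken as relatives of the members, 2 had whole-brain peaks, *Lingo2* with 11 and *Elfn2* with 1. None had hippocampal peaks. *Lingo2*, at 1245 kb, was the single relative of at least 250 kb, and none of the 12 under 50 kb, among them *Slitrk1* and *Flrt3*, had a peak. Of 11 genes encoding binding partners, 5 had whole-brain peaks, among them the receptor phosphatase gene *Ptprd* with 87, *Mdga2* with 28, *Nrxn3* with 12 and *Nrxn2* with 10. In hippocampus *Nrxn2* and *Nrxn3* had 2 peaks each. *Ntng1*, the netrin-G1 gene whose product binds NGL-1, spans 364 kb and had none. Of protein-coding genes of at least 250 kb, 28.0% had a whole-brain peak. *Lrrtm1*, *Lrrtm2* and *Lrrtm3* lie within introns of α-catenin genes, and of the 3 α-catenin genes *Ctnna2* alone had peaks, 7 in whole brain.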

How the data were processed

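Per the submitters' notes and methods, the authors used cutadapt 3.4 for trimming, STAR 2.7.9 for alignment to mm10 and UMI-tools 1.1.1 for duplicates, and CLIPper peaks of 2 replicates per tissue were merged by IDR. The deposited lists give each peak a log2 fold change over input and a −log10 p, and an IDR score on a −log10 scale, all computed by the authors. The lists have no header, and the meaning of these columns was taken from the study's own table. Read counts and depths were not analysed here. Peaks were assigned by centre and strand to GENCODE vM21 genes (mm10), and sequence was read from GRCm38, whose chromosomes contain every peak. Introns are numbered in the principal transcript, and distances to exons use every annotated transcript of the gene. Densities are starts of UWAA per 100 positions, with overlapping copies each counted. Shares were compared by Fisher's exact test over peaks with Benjamini-Hochberg adjustment over 3 comparisons at 0.05, with exact 95% binomial intervals. The member genes, the gene lists, the span classes and the rule for printed sequences (the highest fold change, most UWAA, nearest exon and hippocampal peaks of each gene) were chosen with earlier results of these data known. Some items that these rules select are not reported here. The 25-kb stretches were chosen after seeing the peaks. Alternatives covered stricter limits, other windows, flanks, masking and strand. Scripts were tested on simulated data. Python 3.11.15, pandas 2.3.3, scipy 1.17.1 and pysam 0.24.0 were used.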

Additional observations from a re-analysis of the deposited data

How the results depend on the processing

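No paired analysis was possible because each tissue has 1 merged list without columns per replicate. The whole-brain sum of 95 peaks became 15 with the log2 fold change limit raised to 3, 20 at a −log10 IDR of at least 3 and 0 on the opposite strand. The hippocampal sum of 4 became 0, 1 and 0 under the same settings, and 0 without peaks of −log10 p below 2. The UWAA difference of 2.31 became 1.19 over the 33 peaks left by a limit of 20% masked bases. Over the 11 peaks whose window and both flanks met that limit it was 1.53, and within 25 nt of the centre it was 2.83. It was 2.15 to 2.41 with 5′ ends, flanks at 2000 nt or joined sites. The difference in the share of peaks with UWAA was 19.3 points among peaks with log2 fold changes of 3 or more (Fisher's exact test, adjusted p = 0.255, fewer peaks). With alternatives added after seeing the data, it was −0.986 points at an A and U content of at least 65%, and it passed Fisher's exact test without *Nlgn1* (adjusted p = 7.02e-05), without *Lrrtm4* (0.0229), against others without *Rbfox3* (0.000494) and with at most 20% masked bases (0.00241). The difference in masked peaks turned to 8.97 points at a limit of 20% (Fisher's exact test, adjusted p = 0.161), and that in tissue overlap to 3.39 points for centres within 500 nt (adjusted p = 1). The causes were not tested. Of 64 values for single genes, 46 stayed within 1.5 times the reported count and 18 did not.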
